A study of Mus musculus with 6 samples.

Results

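The smooth muscle contractile genes described here are 10 genes: Acta2, Actg2, Tagln, Tagln2, Cnn1, Cnn2, Myl9, Mylk, Cald1 and Vcl. They were taken by name, as the probe sets annotated with that single gene symbol, and all 10 were found among the 18193 genes of the table, with 21 probe sets in all. Each gene is represented by its probe set with the highest mean over the 6 arrays, and no gene was removed for a low value. Expression was measured on Affymetrix mouse arrays in NMuMG, an immortalised epithelial line of normal mouse mammary gland origin grown with insulin and serum. Withdrawal cells received TGF-β at 4 ng/ml for 11 days and were then kept for 13 days without it, TGF-β cells received the same dose for 11 days, and control cells received vehicle, each with 2 arrays. The line is 1 cell line in culture, with no muscle cells or other cell types stated in the labels, and the length of vehicle treatment is not given in the sources used here.

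Contraction of smooth muscle and of myofibroblasts uses filaments of actin and of non-sarcomeric myosin. Myosin pulls when its regulatory light chain is phosphorylated by myosin light chain kinase, and calponin, caldesmon and transgelin bind the actin filament. Many of the genes are driven by serum response factor and its myocardin-related partners, which bind a DNA element called the CArG box, and TGF-β is known to induce several of them in epithelial cells that take on mesenchymal features. In the mammary gland the smooth muscle actin encoded by Acta2 normally marks myoepithelial cells.

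The values are log2 expression levels, so a difference of 1 is a doubling, and levels of different genes are not set against each other because each probe set has its own brightness. The 6 arrays had medians of 5.77 to 5.79 on the log2 scale, and arrays within a group were closer to each other (Pearson's r across probe sets 0.9976 to 0.9981) than arrays of different groups (0.9736 to 0.9813); probe sets are not independent replicates. A gene was called when its adjusted p in the limma test over all 18193 genes was under 0.05, and differences are given with their standard error (SE). Nothing in the labels states that replicates are separate cultures, and p-values therefore measure only the spread between these arrays, which may be technical. The free-text descriptions call the withdrawal arrays EMT and the TGF-β arrays MET, the reverse of what the stated treatments imply, and the groups used here follow the titles and treatments. The junction gene Cdh1 (E-cadherin) had log2 levels of 11.80 in withdrawal cells, 8.31 in TGF-β cells and 11.94 in control cells (group means, n = 2 each). In these bulk samples more cells that express a gene and more RNA per cell cannot be told apart.

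Promoter windows from RefSeq (build GRCm38.p6, 300 bases each, ending 50 bases past an annotated start site) were matched by symbol for 8 of the 10 genes, and Actg2 and Tagln had no entry. They were searched for the CArG box, which is read the same way on both strands, and for a looser form that allows 1 G or C among its core bases. The exact box stood in the windows of Cnn2, Myl9 and Vcl, that is 3 of 8 genes, against 1.81% of the 27025 genes with a window. The looser form, which includes the exact one, also occurred in Acta2, so that 4 of 8 genes held it, against 11.3% of genes. The sequences below are printed for the genes with a match, which all rose under TGF-β, and for Mylk, which fell and whose window held neither form and lies inside the annotated gene. Capitals mark the exact and looser matches. The windows are chr19:34255324-34255623 (minus strand), chr2:156775214-156775513 (plus strand), chr10:79988350-79988649 (plus strand), chr14:20929148-20929447 (plus strand) and chr16:34784700-34784999 (plus strand), each written 5′ to 3′ along its gene.
Acta2: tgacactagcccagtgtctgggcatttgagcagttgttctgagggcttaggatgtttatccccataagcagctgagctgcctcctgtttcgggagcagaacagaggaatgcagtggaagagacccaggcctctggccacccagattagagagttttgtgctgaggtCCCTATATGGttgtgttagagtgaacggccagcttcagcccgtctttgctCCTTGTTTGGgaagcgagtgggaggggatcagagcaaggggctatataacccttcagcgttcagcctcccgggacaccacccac
Myl9: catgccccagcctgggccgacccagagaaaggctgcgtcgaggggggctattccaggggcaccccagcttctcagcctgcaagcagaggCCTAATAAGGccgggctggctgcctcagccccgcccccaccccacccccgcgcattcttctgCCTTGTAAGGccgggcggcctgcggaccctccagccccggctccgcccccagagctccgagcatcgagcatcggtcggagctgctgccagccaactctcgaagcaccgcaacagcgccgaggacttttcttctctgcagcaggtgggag
Cnn2: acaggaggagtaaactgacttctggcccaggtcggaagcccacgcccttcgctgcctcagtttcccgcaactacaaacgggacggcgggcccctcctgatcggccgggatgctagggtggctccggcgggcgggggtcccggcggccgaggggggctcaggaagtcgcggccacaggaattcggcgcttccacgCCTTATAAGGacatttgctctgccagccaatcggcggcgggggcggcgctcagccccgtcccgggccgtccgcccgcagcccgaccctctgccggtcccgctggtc
Vcl: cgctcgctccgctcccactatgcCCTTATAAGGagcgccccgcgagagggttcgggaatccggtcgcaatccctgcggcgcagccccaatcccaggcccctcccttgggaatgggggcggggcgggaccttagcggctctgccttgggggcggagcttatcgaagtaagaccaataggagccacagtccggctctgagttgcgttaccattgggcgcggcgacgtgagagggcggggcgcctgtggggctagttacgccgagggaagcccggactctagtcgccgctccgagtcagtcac
Mylk: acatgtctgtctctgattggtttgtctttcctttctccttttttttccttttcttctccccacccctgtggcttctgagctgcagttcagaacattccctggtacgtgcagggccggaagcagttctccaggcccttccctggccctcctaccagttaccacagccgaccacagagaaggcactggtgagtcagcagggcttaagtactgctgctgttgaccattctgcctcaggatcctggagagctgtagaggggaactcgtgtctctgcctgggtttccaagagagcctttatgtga
The exact boxes read CCTAATAAGG in Myl9, and CCTTATAAGG in both Cnn2 and Vcl. The looser matches were CCCTATATGG and CCTTGTTTGG in Acta2, and CCTTGTAAGG in Myl9. The windows of Cnn1, Tagln2 and both Cald1 start sites held neither form, and these genes also rose under TGF-β. The absence says only that these letters are not in those windows. The element CATTCC, bound by TEAD factors and searched on both strands, stood in the windows of 5 of 8 genes (Acta2, Tagln2, Mylk, Cald1 and Vcl), against 16.6% of genes, and overlapped no CArG match. These matches are descriptions of sequence and were not tested for binding or for a link with the changes.

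**Figure D1:**
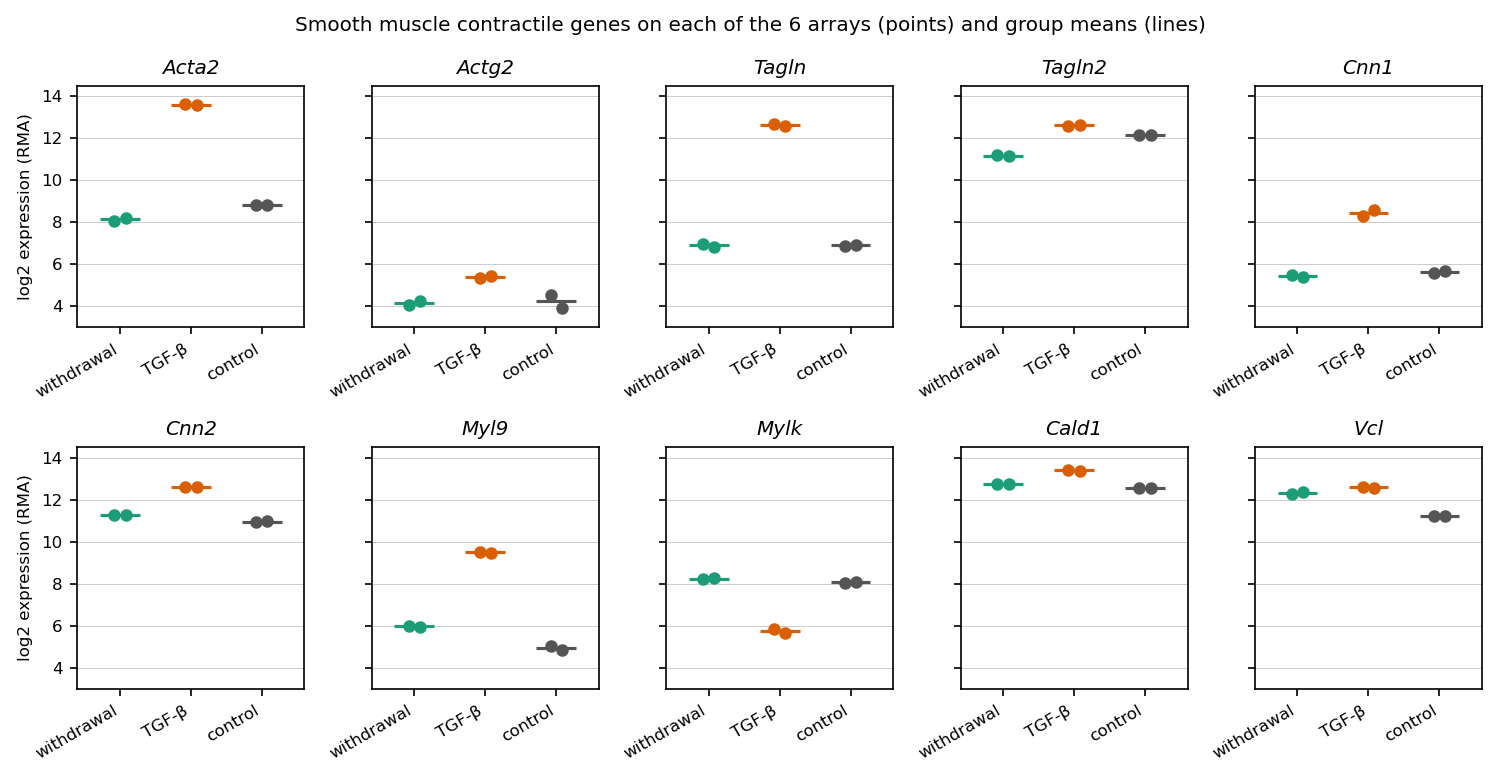
Log2 expression (vertical axis) of the 10 contractile genes on each array, as points, with group means as lines; withdrawal, TGF-β and control are given from left to right, with 2 arrays each. TGF-β arrays were the highest for 9 genes and the lowest for Mylk, and the Vcl withdrawal arrays, at 12.30 and 12.37, lay near the TGF-β arrays at 12.60 and 12.59.

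The first comparison asked how 11 days of TGF-β changed the contractile genes. All 10 were called, 9 higher and 1 lower, where 32.4% of all genes were called in either direction, 15% higher and 17.5% lower. The median log2 difference of the 10 genes was 1.499, beside -0.01 over all genes. Of the 10 genes, 8 differed by at least 1 in either direction, and the arrays of both groups did not overlap for any of the 10, as for 64.9% of all genes.

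Acta2, which encodes smooth muscle α-actin, had log2 levels of 13.63 and 13.61 in TGF-β cells, against 8.81 and 8.80 in control cells, a 28.1-fold increase (log2 difference 4.81 ± 0.06 SE, adjusted p = 1.09e-06 in limma). The groups stood far apart, and only 2 of all genes had a larger increase. Actg2, the smooth muscle γ-actin gene of gut and other visceral muscle, had log2 levels of 5.32 and 5.46 in TGF-β cells, against 4.54 and 3.91 in control cells (log2 difference 1.16 ± 0.20 SE, adjusted p = 0.00686 in limma). Its control arrays lay further apart than those of any other gene in the group, and its control mean stood at percentile 13 of all genes. With no detection calls, a level that low is not separated from background. Actin genes are close relatives in sequence, and the brightest Acta2 probe set carries the suffix that Affymetrix gives to sets shared by several transcripts, so some signal may be shared among them.

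Among the actin-binding proteins, transgelin led. Tagln, the transgelin gene, had log2 levels of 12.69 and 12.61 in TGF-β cells, against 6.89 and 6.92 in control cells, a 53.6-fold increase and rank 1 of 18193 genes (log2 difference 5.75 ± 0.07 SE, adjusted p = 1.09e-06 in limma). Its relative Tagln2, which is widely expressed outside muscle, had log2 levels of 12.61 and 12.65 in TGF-β cells, against 12.15 and 12.17 in control cells. That increase was 1.38-fold (log2 difference 0.47 ± 0.05 SE, adjusted p = 9.91e-04 in limma), and it did not pass when arrays were scaled to spiked RNAs (adjusted p = 0.384 with poly-A spikes and 0.0645 with hybridization spikes). Calponin 1, encoded by Cnn1 and typical of differentiated smooth muscle, stood at log2 levels of 8.30 and 8.57 in TGF-β cells, against 5.58 and 5.69 in control cells, an increase of 6.99-fold (log2 difference 2.80 ± 0.10 SE). The more widely expressed calponin gene Cnn2 stood at log2 levels of 12.61 and 12.61 in TGF-β cells, against 10.96 and 10.98 in control cells, an increase of 3.12-fold (log2 difference 1.64 ± 0.05 SE). Caldesmon, encoded by Cald1, had log2 levels of 13.43 and 13.40 in TGF-β cells, against 12.59 and 12.54 in control cells (log2 difference 0.85 ± 0.05 SE, adjusted p = 8.21e-05 in limma). In all of these pairs the TGF-β arrays were above the control arrays.

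The responses of 3 pairs of relatives were set side by side within arrays. The log2 difference between TGF-β and control cells was larger by 5.28 for Tagln than for Tagln2 and by 1.16 for Cnn1 than for Cnn2. For Acta2 and Actg2 the value was 3.65, which rests on the Actg2 control level that is not separated from background and is not an exact size. In each pair the within-array differences did not overlap between the groups, and the exact two-sided permutation test gave p = 0.333, the smallest that 2 against 2 arrays allow.

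The myosin genes went opposite ways. Myl9, which encodes the regulatory light chain of smooth muscle myosin, had log2 levels of 9.53 and 9.48 in TGF-β cells, against 5.04 and 4.83 in control cells, a 23.8-fold increase at rank 5 of all genes (log2 difference 4.57 ± 0.08 SE, adjusted p = 1.93e-06 in limma). The Myl9 control mean stood at percentile 22.9 of all genes. Without detection calls that level is not separated from background, so the fold increase and the rank are not exact. Mylk, which encodes the kinase that phosphorylates that light chain, had log2 levels of 5.83 and 5.63 in TGF-β cells, against 8.04 and 8.10 in control cells. Mylk fell by 2.34 on the log2 scale (± 0.08 SE, adjusted p = 9.57e-06 in limma), that is 5.06-fold lower, and stood at rank 85 among the largest decreases. The second Mylk probe set had log2 levels of 5.313 and 4.998 in TGF-β cells, against 7.05 and 6.99 in control cells, and its log2 difference was -1.86. The dimmest of the 3 had a log2 difference of -0.47, so all 3 probe sets were called lower. Mylk is known to give several products, a long and a short kinase and a kinase-free end piece called telokin, and the files do not say which of them each probe set reads.

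Vinculin, encoded by Vcl, links actin filaments to integrin and cadherin adhesions. Its log2 levels were 12.60 and 12.59 in TGF-β cells, against 11.24 and 11.23 in control cells, a 2.56-fold increase (log2 difference 1.36 ± 0.05 SE, adjusted p = 1.70e-05 in limma). The second, dimmer Vcl probe set also rose, with a log2 difference of 0.92 (adjusted p = 0.0155 in limma over probe sets).

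**Figure D2:**
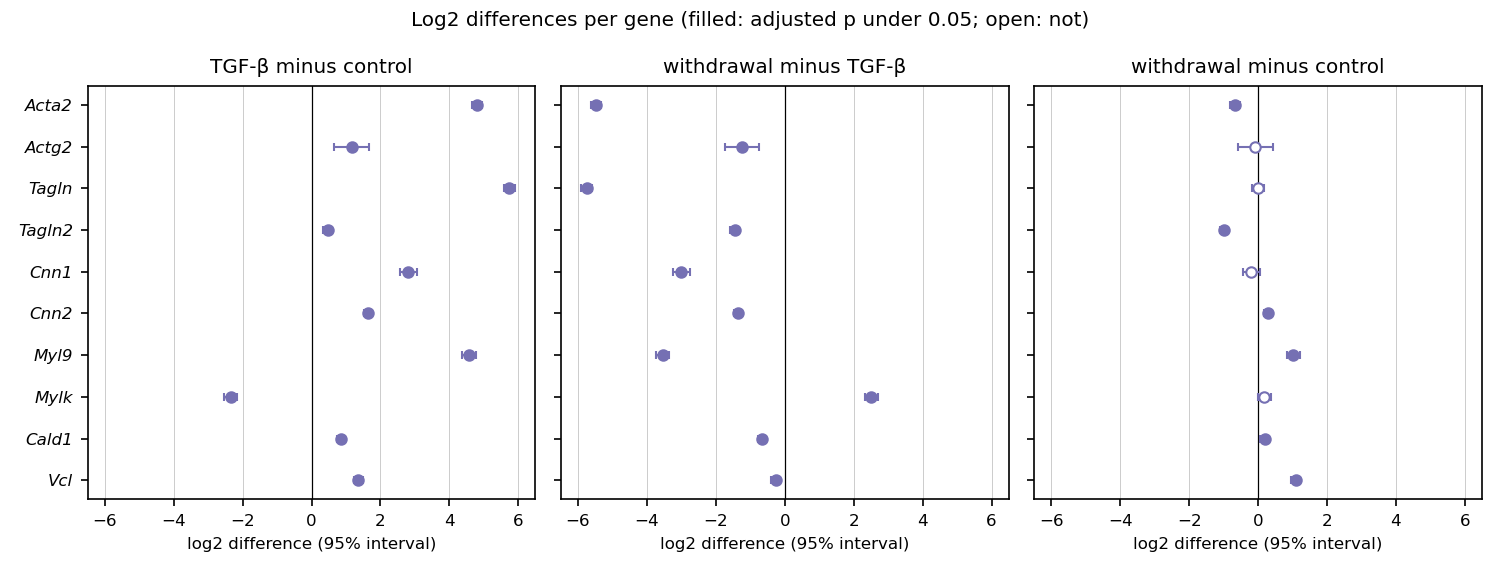
Log2 differences (horizontal axis, with 95% intervals from limma) of the 10 genes for TGF-β minus control, withdrawal minus TGF-β and withdrawal minus control; filled points were called and open points were not. Under TGF-β 9 genes lie right of 0 and Mylk left of it, withdrawal turns each sign, and against control the differences run from -0.99 for Tagln2 to 1.10 for Vcl.

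The second comparison asked what the contractile genes did after 13 days without TGF-β. Every one of the 10 was called in the direction opposite to its TGF-β change, 9 lower and 1 higher, where 43.9% of all genes were called, 22.1% lower and 21.8% higher. Both comparisons share the TGF-β arrays, so the opposite signs are not independent of each other, and 15.5% of all genes were called in opposite directions in both. Removal of TGF-β and the additional 13 days in culture cannot be told apart. The median log2 difference of the 10 genes was -1.40, beside -0.03 over all genes, and their arrays did not overlap for any of the 10, as for 69% of all genes.

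Acta2 had log2 levels of 8.08 and 8.20 in withdrawal cells, against 13.63 and 13.61 in TGF-β cells, and was 44.6-fold lower. Tagln had log2 levels of 6.97 and 6.82 in withdrawal cells, against 12.69 and 12.61 in TGF-β cells, and was 53.9-fold lower. These were ranks 3 and 2 among the decreases of all genes, with a log2 difference of -5.48 ± 0.06 SE for Acta2 and -5.75 ± 0.07 SE for Tagln (adjusted p = 6.52e-07 for both in limma). Myl9 had log2 levels of 5.98 and 5.94 in withdrawal cells, against 9.53 and 9.48 in TGF-β cells, and was 11.7-fold lower. Cnn1, at 5.47 and 5.40 in withdrawal cells against 8.30 and 8.57 in TGF-β cells (log2 levels), was 8.01-fold lower. For all 4 genes the withdrawal arrays lay below both TGF-β arrays.

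Smaller decreases were those of Tagln2, Cnn2, Actg2, Cald1 and Vcl. Tagln2 had log2 levels of 11.20 and 11.15 in withdrawal cells, against 12.61 and 12.65 in TGF-β cells (log2 difference -1.45 ± 0.05 SE). The log2 difference was -1.34 for Cnn2, -1.24 for Actg2 and -0.66 for Cald1. Vcl fell least, with log2 levels of 12.30 and 12.37 in withdrawal cells against 12.60 and 12.59 in TGF-β cells (log2 difference -0.26 ± 0.05 SE, adjusted p = 0.00809 in limma). Its call was lost with the mean of both probe sets (log2 difference -0.02, adjusted p = 0.889) and with poly-A spike scaling (-0.11, adjusted p = 0.730). Mylk was the gene that rose, with log2 levels of 8.24 and 8.25 in withdrawal cells, against 5.83 and 5.63 in TGF-β cells (5.71-fold, log2 difference 2.51 ± 0.08 SE, adjusted p = 7.21e-06 in limma).

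The third comparison set withdrawal cells against control cells that had never received TGF-β. The length of vehicle treatment is not given, so lasting effects of TGF-β and effects of time in culture cannot be told apart. Of the 10 genes 6 were called, 4 higher and 2 lower, a share of 60% beside 45.3% over all genes, with 21.7% higher and 23.6% lower. As a count this is near the background, and the genes are described singly. Their arrays did not overlap for 8 of the 10 genes, where 70.5% of all genes did not overlap.

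Vcl and Myl9 were above control in withdrawal cells. Vcl had log2 levels of 12.30 and 12.37 in withdrawal cells, against 11.24 and 11.23 in control cells, 2.14-fold higher (log2 difference 1.10 ± 0.05 SE, adjusted p = 2.18e-05 in limma). This difference is 80.8% of its TGF-β difference on the log2 scale. The other Vcl probe set was higher by 1.13. Myl9 had log2 levels of 5.98 and 5.94 in withdrawal cells, against 5.04 and 4.83 in control cells, 2.04-fold higher (log2 difference 1.03 ± 0.08 SE, adjusted p = 1.37e-04 in limma), or 22.4% of its TGF-β difference. These Myl9 sizes rest on a control level that is not separated from background and are not exact. The Vcl and Myl9 calls held under every alternative setting that was run. Cnn2 and Cald1 were called at small log2 differences of 0.30 and 0.19. For Cnn2 the difference turned to -0.08 with hybridization spike scaling, and for Cald1 the next probe set by brightness gave -0.15 and the third 0.13, neither of which passed, while leaving out any 1 withdrawal or control array ended the call.

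Acta2 and Tagln2 ended below control. Acta2 had log2 levels of 8.08 and 8.20 in withdrawal cells, against 8.81 and 8.80 in control cells, 1.59-fold lower (log2 difference -0.67 ± 0.06 SE, adjusted p = 2.47e-04 in limma). The next Acta2 probe set, which rose by 1.94 under TGF-β, differed from control by -0.08 and did not pass (adjusted p = 0.632), though it is dim, at percentile 23.3 of probe sets. Tagln2 had log2 levels of 11.20 and 11.15 in withdrawal cells, against 12.15 and 12.17 in control cells, 1.98-fold lower (log2 difference -0.99 ± 0.05 SE, adjusted p = 2.90e-05 in limma). All 3 Tagln2 probe sets were called lower there, with log2 differences of -0.72 to -1.01.

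The other 4 genes were not called against control. The 95% interval of the log2 difference ran from -0.18 to 0.16 for Tagln, from -0.44 to 0.05 for Cnn1, from -0.01 to 0.36 for Mylk and from -0.58 to 0.43 for Actg2. The Tagln interval is narrow beside its change of 5.75 under TGF-β, and that of Actg2 is wide because its control arrays were far apart. The second Mylk probe set was called higher than control, with log2 levels of 7.58 and 7.77 in withdrawal cells against 7.05 and 6.99 in control cells (log2 difference 0.66, adjusted p = 0.00553 in limma over probe sets).

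**Figure D3:**
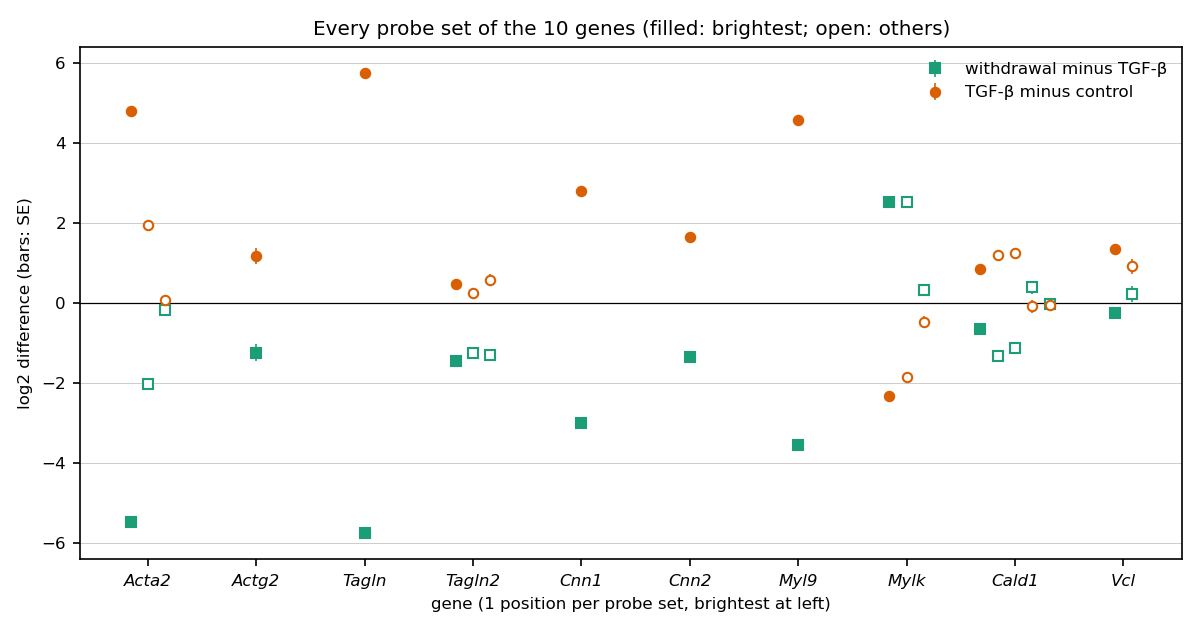
Log2 differences (vertical axis, bars are SE) of all 21 probe sets of the 10 genes for withdrawal minus TGF-β (squares) and TGF-β minus control (circles); filled symbols are the brightest set of each gene. The 3 Mylk sets lie below 0 for TGF-β minus control and above it for withdrawal minus TGF-β, where 1 dim Cald1 set (0.39) and the dimmer Vcl set (0.22) also lie above 0, and the third Acta2 set and the 2 dimmest Cald1 sets lie near 0 for TGF-β minus control.

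The probe sets of a gene did not all respond alike. The third Acta2 probe set, at a mean log2 level of 4.55, had a log2 difference of 0.07 under TGF-β and did not pass (adjusted p = 0.591 in limma over probe sets). For Cald1 the 3 brightest sets rose by 0.85, 1.19 and 1.25 on the log2 scale under TGF-β, while the 2 dimmest were at -0.09 and -0.06 and did not pass. Cald1 has 2 start sites in the RefSeq table, and which transcripts the dim sets read was not tested. Tagln, Cnn1, Cnn2, Myl9 and Actg2 had 1 probe set each, so no second reading exists for them here.

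Likeness was measured as the Euclidean distance between genes over the 6 arrays, after the control mean of each gene was subtracted, and is a description. Closest to Acta2 were Tagln (distance 1.63), the hyaluronan synthase gene Has2 (1.91), the collagen gene Col5a3 (1.92), Ctsw (2.02) and Bcat1 (2.04). Closest to Tagln were Acta2 (1.63), the latent TGF-β binding protein gene Ltbp2 (2.02), Myl9 (2.22), Col1a1 (2.79) and the cadherin gene Cdh10 (2.87). Of the other members, Myl9 was in place 11 and Cnn1 in place 14 of the genes most like Acta2, while Mylk was in place 18106.

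The relatives and partners of these proteins were read from lists drawn up by function, and shares called are given beside those over all genes. Of 11 paralogs, 5 rose and 1 fell under TGF-β, 54.5% called beside 32.4% over all genes, with a median log2 difference of 0.25. The skeletal actin gene Acta1 rose by 2.37, the essential light chain gene Myl6 by 0.85 and the calponin relative Cnn3 by 0.65 (adjusted p = 0.0852 with poly-A spike scaling), all log2 differences, and the signal of Acta1 may be shared with Acta2 for the reason given above. On withdrawal 7 paralogs fell and 1 rose, 72.7% called beside 43.9% over all genes. The log2 difference was -2.63 for Acta1 and -0.84 for Myl6. The regulatory light chain gene Myl12b moved against the rest, at -0.25 under TGF-β and 0.45 on withdrawal (log2 differences), as Mylk did.

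Of 14 measured thin filament genes, 7 rose and 1 fell under TGF-β, 57.1% called beside 32.4% over all genes. Their median log2 difference was 0.20. The tropomyosin genes Tpm1 and Tpm4 rose by 0.85 and 0.76 and the filamin gene Flna by 0.71, while the profilin gene Pfn2 fell by 0.96 on the log2 scale. On withdrawal 9 fell and the other 5 did not pass, 64.3% called beside 43.9% over all genes. Tpm1 was at -1.15, Tpm4 at -1.01, Tpm3 at -0.71 and Flnc at -0.63 (log2 differences). With poly-A spike scaling the medians of the paralog and thin filament lists under TGF-β turned to -0.04 and -0.09. The counts with that scaling were 2 paralogs and 3 thin filament genes higher under TGF-β, and 2 paralogs and 4 thin filament genes lower on withdrawal.

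Of 19 measured adhesion partners of vinculin, 14 rose and the other 5 did not pass under TGF-β, 73.7% called beside 32.4% over all genes. Their median log2 difference was 0.68, positive under every scaling tried, although 8 were called higher with poly-A spike scaling. The largest increases were those of Tgfb1i1, which encodes the adhesion adaptor Hic-5, at 2.39, the zyxin gene Zyx at 1.72, the fibronectin receptor gene Itga5 at 1.69 and the tensin gene Tns1 at 1.68. On withdrawal 12 fell and 1 rose, 68.4% called beside 43.9% over all genes, or 6 and 1 with poly-A spike scaling. The largest falls were those of Zyx at -1.59, Tns1 at -1.54, Itga5 at -1.48 and Actn1 at -1.19 (log2 differences). Against control 9 were higher and 2 lower in withdrawal cells, 57.9% called beside 45.3% over all genes. Tgfb1i1 was at 1.38, the vinexin gene Sorbs3 at 0.92, Tns3 at 0.62 and the talin gene Tln1 at 0.56 (log2 differences). With hybridization spike scaling the counts against control became 2 higher and 6 lower, since that scaling moves the median of all genes to -0.42.

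**Figure D4:**
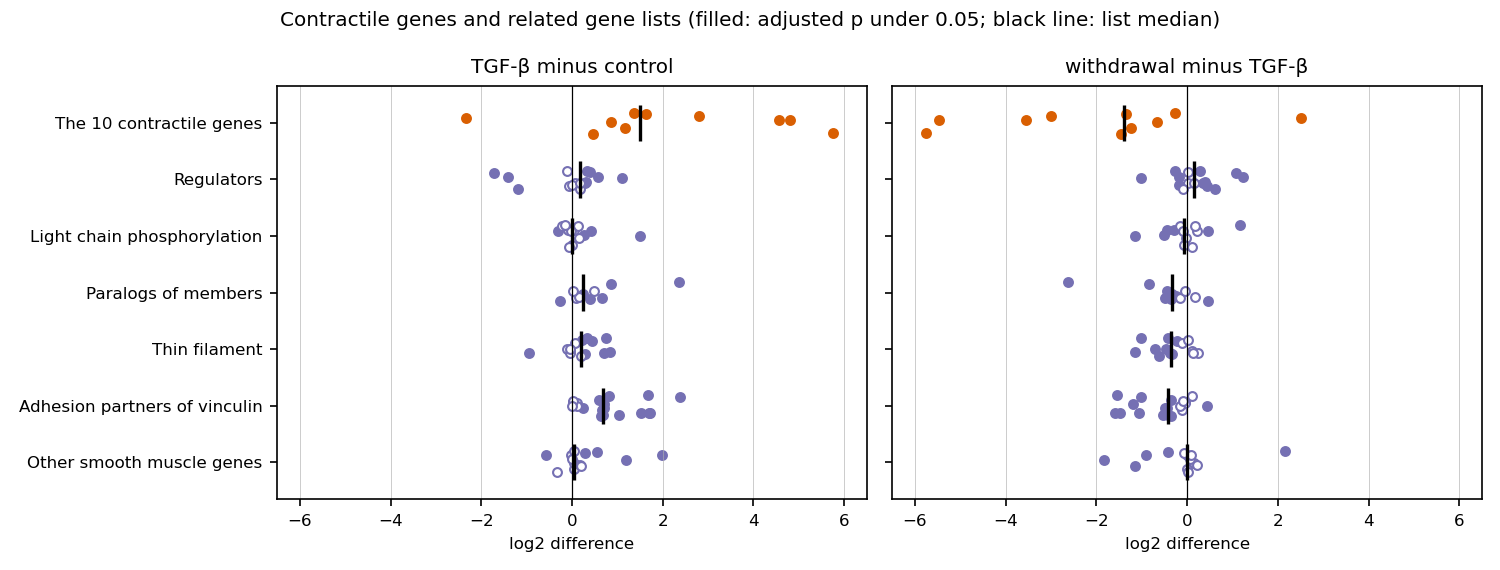
Log2 differences (horizontal axis) of the 10 contractile genes and of 6 related lists for TGF-β minus control and withdrawal minus TGF-β; each point is a gene, filled when called, and black lines are list medians. The adhesion partners sit mainly right of 0 under TGF-β with a median of 0.68, while the light chain phosphorylation list is centred near 0.

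Genes that control light chain phosphorylation showed no common direction. Of 13 measured, 3 rose and 1 fell under TGF-β, a share of 30.8% called beside 32.4% over all genes. The GTPase gene Rhob rose by 1.499 under TGF-β and was at -1.15 on withdrawal, and the phosphatase targeting subunit gene Ppp1r12b was at 0.41 and 0.46, all log2 differences. The increase of Ppp1r12b under TGF-β did not pass with either spike scaling (adjusted p = 0.541 and 0.135), and the list's median log2 difference of 0.0019 turned to -0.29 with poly-A spikes and -0.16 with hybridization spikes. The RhoA exchange factor gene Arhgef12 was at -0.16 under TGF-β, without passing, and rose by 1.18 on withdrawal.

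Of 15 regulators of smooth muscle transcription, 6 rose and 3 fell under TGF-β, 60% called beside 32.4% over all genes. Srf, the serum response factor gene, had a mean log2 level of 8.89 in TGF-β cells, against 7.79 in control cells (log2 difference 1.09, adjusted p = 6.60e-05 in limma), and was at -1.01 on withdrawal. Its partner genes Mrtfa and Mrtfb, named here after their values were seen, had log2 differences of 0.58 and 0.29 under TGF-β, and neither passed with poly-A spike scaling (adjusted p = 0.156 and 0.996). On withdrawal Mrtfa fell by 0.18 while Mrtfb rose by 0.34 on the log2 scale, opposite to Srf. The fall of Mrtfa did not pass with poly-A spike scaling (adjusted p = 0.929), nor the rise of Mrtfb with hybridization spike scaling (adjusted p = 0.413). Myocd, the myocardin gene of cardiac and smooth muscle, was at mean log2 levels of 5.11 in TGF-β cells and 5.03 in control cells and did not pass. These levels, at percentiles 25.7 and 24.3 of all genes, are not separated from background. Klf4, whose product is known to repress smooth muscle genes, fell by 1.40 on the log2 scale under TGF-β and rose by 1.24 on withdrawal. Gata6 and Klf5 also fell under TGF-β, with log2 differences of -1.71 and -1.18. The median log2 difference of this list was 0.18 and turned to -0.11 with poly-A spike scaling, under which 1 regulator was called higher and 3 lower.

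Of 5 markers of mature smooth muscle (Myh11, Des, Lmod1, Myocd and Smtn), 1 was called under TGF-β, the smoothelin gene Smtn, with a log2 difference of 0.55 that did not pass with poly-A spike scaling (adjusted p = 0.212). That share of 20% lies below the 32.4% over all genes. On withdrawal Smtn fell by 0.42 on the log2 scale, and the other 4 did not pass in either comparison. Myh11, the smooth muscle myosin heavy chain gene, had mean log2 levels of 4.95 in withdrawal cells, 4.95 in TGF-β cells and 4.91 in control cells. These stood at percentiles 23.7, 23.3 and 22.6 of all genes. Without detection calls such levels are not separated from background, so they do not show that Myh11 was expressed. Of 13 other smooth muscle genes measured, which include Myh11, Smtn and Des, 4 rose and 1 fell under TGF-β. That share of 38.5% is near the 32.4% over all genes, and the genes are described singly. The LIM protein gene Csrp1 was at 1.98, the PDZ and LIM gene Pdlim7 at 1.20 and the caveolin gene Cav1 at -0.57 (log2 differences). The median log2 difference of those 13 genes was 0.04, and turned to -0.25 and -0.12 with poly-A and hybridization spike scaling. Csrp1 stood 1.08 above control in withdrawal cells.

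Markers of other cell types were read on the same arrays. Over all genes 32.4% were called under TGF-β and 43.9% on withdrawal. Under TGF-β the share called was 33.3% for pericyte and fibroblast markers and 25% for striated muscle markers. As counts these are near or below the share over all genes, and the markers are described singly. No myoepithelial marker (Krt5, Krt14, Krt17, Trp63, Oxtr) was called under TGF-β by limma, with 1 of 5 at an unadjusted p under 0.05, and the mean log2 level over the 5 was 4.939 and 5.006 on withdrawal arrays, 4.996 and 5.025 on TGF-β arrays, and 5.081 and 5.085 on control arrays. On withdrawal 1 of the 5, Krt14, was called lower, a share of 20%. Its log2 difference of -0.38 did not pass with poly-A spike scaling (adjusted p = 0.379). Against control Krt5 and Krt14 were lower in withdrawal cells (log2 differences -0.25 and -0.39), a share of 40% beside 45.3% over all genes. The Krt5 call was lost with poly-A spike scaling (adjusted p = 0.0694). Of 6 pericyte and fibroblast markers, Pdgfrb and Col1a1 rose, and the mean log2 level over the 6 was 6.10 and 6.24 on withdrawal arrays, 6.64 and 6.66 on TGF-β arrays, and 5.32 and 5.37 on control arrays. On withdrawal Col1a1 fell and Pdgfrb rose further. Col1a1 had mean log2 levels of 6.29 in withdrawal cells, 9.70 in TGF-β cells and 5.87 in control cells, and Pdgfrb had mean log2 levels of 9.91 in withdrawal cells, 8.84 in TGF-β cells and 4.52 in control cells. Pdgfra, Rgs5, Cspg4 and Lum were not called under TGF-β. Among 8 striated muscle markers 2 rose, Acta1 and Tnnt2 (log2 differences 2.37 and 0.63, the second with adjusted p = 0.106 under poly-A spike scaling). The mean log2 level over the 8 was 5.82 and 5.90 on withdrawal arrays, 6.76 and 6.77 on TGF-β arrays, and 6.26 and 6.34 on control arrays. Tnni1 and Actc1 had log2 differences of 0.15 and 0.48 and did not pass (adjusted p = 0.332 and 0.0522 in limma). Myod1, Myog, Ckm and Mb had log2 differences between -0.02 and 0.10 and did not pass either. On withdrawal 4 of the 8 striated muscle markers fell, a share of 50%, or 2 with poly-A spike scaling. Tnnt2 was at -3.48, Acta1 at -2.63, Actc1 at -0.45 and Ckm at -0.25 (log2 differences). The part of any other cell type in the rise of the contractile genes was not tested.

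Of 5 epithelial markers, 3 fell under TGF-β, with a log2 difference of -3.63 for Cdh1, -0.73 for Krt8 and -0.53 for Krt18, and the other 2, Epcam and Cldn7, did not pass. On withdrawal 1 rose and 2 fell, with Cdh1 at 3.49, Krt8 at -0.22 and Epcam at -0.27, while Krt18 differed by -0.0018 and stood 0.53 below control (log2 differences). Neither fall passed with poly-A spike scaling (adjusted p = 0.849 for Krt8 and 0.713 for Epcam). That of Krt8 did not pass with cyclic loess either (adjusted p = 0.233). Of the 3 macrophage markers (Ptprc, Cd68, Csf1r) none was called under TGF-β by limma, with 0 at an unadjusted p under 0.05, and of the 3 endothelial markers (Pecam1, Cdh5, Kdr) 1, Cdh5, was called, at a log2 difference of -0.26 that did not pass with cyclic loess (adjusted p = 0.0511). On withdrawal Cd68 rose by 1.05 (log2 difference), while Ptprc and Csf1r did not pass.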

How the data were processed

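Per the submitters' processing notes, the authors made the deposited log2 values with RMA, a method that corrects background, equalises the distributions of the arrays and summarises probes; its version is not given in the sources used here. Per the labels' protocols, total RNA was made into biotin-labelled antisense RNA with a 3′ kit. RMA removes a shift shared by all genes. No detection calls were used here, so values near background are not marked.

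Of 45101 probe sets, 34945 had 1 gene symbol in the platform annotation, and 64 controls were left out. Members were matched on that symbol. limma 3.58.1 (R 4.3.3; lmFit and eBayes, 3 residual and 2.86 prior degrees of freedom) was fitted to all 6 arrays and all 18193 genes without covariates, two-sided, with Benjamini-Hochberg adjustment. A second fit over all single-symbol probe sets gave the values of the other probe sets. The method was tested on simulated data. Tables and figures used Python 3.11.15, pandas 2.3.3 and matplotlib 3.10.9. Promoter windows are RefSeq's.

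The members and lists were chosen with earlier results of these data known. The text names all members, up to 4 called genes per list and comparison by size of change, the markers, and the 5 genes nearest to Acta2 and to Tagln; clone and predicted names were left out there. Some genes of the lists are not analysed here, and counts are given over the measured ones. Alternatives covered normalization, spike scaling, the choice of probe set, dim genes, the model and single arrays.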

Additional observations from a re-analysis of the deposited data

How the results depend on the processing

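Under TGF-β 9 members rose and 1 fell in the limma fit, and on withdrawal 9 fell and 1 rose. No setting that was run changed the direction of a member in either comparison, though some settings, named below, cannot change a difference. Leaving out any 1 array left these counts as they were. Poly-A and hybridization spike scaling each gave 8 members higher under TGF-β, the mean of probe sets and poly-A scaling each gave 8 lower on withdrawal, and Tagln2 and Vcl were the members that lost their calls. Against control 4 were higher and 2 lower in withdrawal cells, with 3 to 4 higher and 2 lower when 1 array was left out. With either spike scaling 2 were higher, with hybridization spikes 5 were lower, and leaving out sets with an x, s or a suffix gave 0 lower in limma, where Actg2 and Tagln2 have no probe set left and the next Acta2 set was at -0.08 (adjusted p = 0.629). In the 3 comparisons the all-gene median log2 difference was -0.30, 0.12 and -0.18 under poly-A scaling, and under hybridization scaling -0.17, -0.25 and -0.42. The split over all genes was 818 higher and 5334 lower under TGF-β with poly-A spikes, 1319 and 4408 with hybridization spikes, and 2726 and 3175 as deposited; on withdrawal it was 3506 and 1500, 2146 and 7772, and 3960 and 4023; and for withdrawal against control 1967 and 3730, 1655 and 12634, and 3943 and 4292.

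Small differences from control changed sign. Hybridization scaling turned Cnn2 to -0.081, Mylk to -0.20 and Cald1 to -0.19, and the probe set choice turned Cald1 to -0.15. Tagln, at -0.0073, was at 0.0029 with cyclic loess, and ran from -0.083 to 0.068 when 1 array was left out. Actg2 ran from -0.39 to 0.24, with positive values of 0.036 and 0.24 without the first withdrawal and the first control array, and Tagln was at 0.068 and 0.0072 without the second withdrawal and the second control array. The cause of these changes was not tested, apart from the shift of all genes that a scaling makes. Of 471 recomputed member values, 446 kept direction and call, 12 lost the call, 4 gained it and 9 changed sign. Many of these values could not change sign. The replicate block, the intensity trend, the removal of dim genes and the fit to 2 groups leave each difference as it was. Leaving out an array of the group not compared does the same, so the tally overstates how far directions were tried. Deviations of same-numbered arrays from their group means correlated at -0.011 to -0.001 across probe sets, so no shared shift by replicate number was seen. The labels state no pairing, and with 2 arrays a group these correlations cannot exclude one. With the replicate number as a block 9 and 1 members were called under TGF-β, 1 and 9 on withdrawal and 4 and 2 against control, higher first. The 2 arrays a group limit precision.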

Other observations

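Some genes on the functional lists changed mainly after TGF-β was taken away. Pgm5, which encodes aciculin, a protein of adhesions in smooth muscle, had a mean log2 level of 6.49 in withdrawal cells, 4.33 in TGF-β cells and 4.29 in control cells. It rose by 2.17 on withdrawal (adjusted p = 2.05e-04 in limma) and stood 2.21 above control, while its TGF-β difference of 0.04 did not pass. The Pgm5 levels in TGF-β and control cells, at percentiles 14.4 and 13.9 of all genes, are not separated from background. Its withdrawal arrays lay apart, at 6.77 and 6.22, so these sizes are not exact. Hspb6, a small heat shock protein gene of muscle, was at 6.19 in withdrawal cells, 7.35 in TGF-β cells and 7.14 in control cells, and fell by 1.16 on withdrawal. Tnnt2, which encodes cardiac troponin T, was at 6.96 in withdrawal cells, 10.44 in TGF-β cells and 9.81 in control cells, with a log2 difference from control of -2.85 after withdrawal. The exchange factor gene Arhgef12 was at 10.21 in withdrawal cells, 9.04 in TGF-β cells and 9.20 in control cells. All levels are group means on the log2 scale with 2 arrays each.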
